A study of Homo sapiens with 6 samples.

Results

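Histone genes were described as a group: the 91 genes whose symbol begins with HIST1H to HIST4H, H1F, H2AF or H3F in the count tables and that also stand in the FPKM tables, of 26485 symbols counted and 28069 genes with an FPKM. Of these, 73 carry a HIST symbol and are called replication-dependent here (6 of type H1, 18 of H2A, 20 of H2B, 14 of H3 and 15 of H4), and 18 carry an H1F, H2AF or H3F symbol and are called variant genes here. The symbol rule also takes in 4 pseudogenes (HIST2H2BA, HIST2H2BC, HIST1H2APS1 and H3F3AP4) and 1 antisense RNA, H1FX-AS1. A further matching symbol, HIST2H3PS2, stood only in the FPKM tables and was left out. In bulk RNA, fewer cells of a kind and less RNA per cell cannot be told apart. The RNA came from K562, an established human myeloid leukaemia line with erythroid features, in 6 RNA-seq libraries. The control libraries carried the guide sgNeg2 and the genotype label WT, and the others carried ZNF410 sgRNA#1 (sgRNA1) or sgRNA#2 (sgRNA2) and the label ZNF410 KO, with libraries rep1 and rep2 in each of the 3 groups. ZNF410 is a zinc-finger transcription factor, and the series asked what it does in gene regulation. The labels describe established knockout lines without saying whether each was a clone or a pool, or what a replicate number stands for, so p-values measure only the spread between these libraries, which may be technical.

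Histones are the proteins around which DNA is wrapped. The core histones H2A, H2B, H3 and H4 form the nucleosome and the linker histone H1 binds where DNA enters and leaves it. Replication-dependent histone genes lie in clusters, have no introns, are transcribed in S phase with the help of the coactivator NPAT, and give messenger RNAs that end in a conserved stem-loop in place of a poly(A) tail. The stem-loop is bound by SLBP, and the 3′ end is cut with the U7 snRNP. Variant histone genes lie alone, are transcribed through the cell cycle and mostly give polyadenylated RNA. Some replication-dependent genes also give polyadenylated RNA in differentiated or non-dividing cells.

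All 56 HIST members on chromosome 6 lay between positions 25726132 and 27893843 (GRCh38, GENCODE v29), 16 lay on chromosome 1 and 1 on chromosome 12, while the 18 variant members were spread over chromosomes 1, 2, 3, 4, 5, 7, 10, 11, 12, 17, 22 and X. Of the 73 HIST members, 72 had at least 1 transcript of a single exon, with HIST1H2AC the exception, and in 59 every transcript had a single exon. Among the 18 variant members 11 had at least 1 such transcript. The histone stem-loop consensus, 16 bases with 3 positions free, was searched in the GENCODE v29 transcripts on the transcript strand. It was found in 32 of 73 HIST members and in 1 of 18 variant members, H2AFX, against 0.0457% of 83129 protein-coding transcripts. Of the 41 HIST members without a match, 34 had no base annotated after the stop codon, so the search did not reach beyond it, and 2 had no annotated stop codon. The examples below show the element that the processing machinery reads, with the 16 matched bases in capitals and 5 bases on each side. HIST1H2AC and HIST2H2BE carry a common form, HIST1H2AG carries a rarer one, HIST2H4A a form found only in H4 members here, and H2AFX is the variant gene with a match.
HIST1H2AC: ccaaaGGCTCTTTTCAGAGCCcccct
HIST2H2BE: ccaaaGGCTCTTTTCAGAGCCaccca
HIST1H2AG: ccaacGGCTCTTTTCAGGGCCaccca
HIST2H4A: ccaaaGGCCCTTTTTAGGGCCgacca
H2AFX: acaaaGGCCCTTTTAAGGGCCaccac

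The promoters of the replication-dependent genes shared letters by type. In the 250 bases before the RefSeq start (GRCh38.p14), searched on both strands, the CCAAT box (CCAAT or ATTGG) was present in every matched HIST member of types H1, H2A, H2B and H3 (6, 16, 18 and 12 genes) and in 3 of 13 H4 genes, against 32.0% of 35116 promoters. The TATA box (TATAAA or TTTATA) was present in 66.2% of the 65 matched HIST members against 10.7% of all promoters. The octamer (ATTTGCAT or ATGCAAAT), the site known for Oct-1 (POU2F1) in H2B promoters, was present in 14 of 18 H2B and 11 of 16 H2A genes, in 1 of 12 H3 genes, and in 1.63% of all promoters. H2A and H2B genes often lie head to head, so a single octamer can fall in the window of both. The H3 gene with an octamer is HIST1H3D, whose RefSeq window is the same as that of HIST1H2AD, 2043 bases from the GENCODE start of HIST1H3D. The RefSeq and GENCODE starts of HIST1H2BE and H3F3B, both with an octamer, also lay over 1000 bases apart (11702 and 6114). The H1 box (AAACACA or TGTGTTT), an element known from linker histone promoters, was present in all 6 H1 genes, in no other HIST member and in 4.82% of all promoters. Among the 14 variant members with a promoter, 11 had a CCAAT box, 4 a TATA box, 1 an octamer and 1 an H1 box. The windows below are those of genes on which the results turn, written 5′ to 3′ on the gene's own strand with these motifs in capitals. They are HIST1H2AG at chr6:27132793-27133042 (plus strand), HIST1H2BK at chr6:27146859-27147108 (minus strand), HIST2H2BE at chr1:149886683-149886932 (minus strand), HIST1H1C at chr6:26056471-26056720 (minus strand) and the variant gene H1FX at chr3:129316287-129316536 (minus strand). The window of HIST1H2AG lies between its start and that of the divergent gene HIST1H2BJ. A match is a run of letters and says nothing of whether a factor was bound.
HIST1H2AG: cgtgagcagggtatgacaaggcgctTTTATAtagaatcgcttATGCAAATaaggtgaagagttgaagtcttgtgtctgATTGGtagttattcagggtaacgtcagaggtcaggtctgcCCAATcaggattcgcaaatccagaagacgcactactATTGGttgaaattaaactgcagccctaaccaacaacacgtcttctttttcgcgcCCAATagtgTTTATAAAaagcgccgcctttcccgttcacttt
HIST1H2BK: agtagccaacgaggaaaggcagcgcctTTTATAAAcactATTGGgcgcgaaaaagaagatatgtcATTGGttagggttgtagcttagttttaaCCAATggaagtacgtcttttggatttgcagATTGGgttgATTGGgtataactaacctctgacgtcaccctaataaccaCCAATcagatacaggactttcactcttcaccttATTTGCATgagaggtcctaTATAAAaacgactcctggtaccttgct
HIST2H2BE: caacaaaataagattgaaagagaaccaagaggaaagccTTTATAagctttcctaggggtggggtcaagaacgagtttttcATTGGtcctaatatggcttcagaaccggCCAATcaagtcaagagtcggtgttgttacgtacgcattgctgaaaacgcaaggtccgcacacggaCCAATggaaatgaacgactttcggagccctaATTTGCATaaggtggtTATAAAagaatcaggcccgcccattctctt
HIST1H1C: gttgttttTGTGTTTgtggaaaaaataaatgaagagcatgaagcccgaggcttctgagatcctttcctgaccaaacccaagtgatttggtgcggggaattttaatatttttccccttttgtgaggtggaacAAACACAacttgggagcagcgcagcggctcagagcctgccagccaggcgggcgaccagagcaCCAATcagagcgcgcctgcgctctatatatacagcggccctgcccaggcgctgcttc
H1FX: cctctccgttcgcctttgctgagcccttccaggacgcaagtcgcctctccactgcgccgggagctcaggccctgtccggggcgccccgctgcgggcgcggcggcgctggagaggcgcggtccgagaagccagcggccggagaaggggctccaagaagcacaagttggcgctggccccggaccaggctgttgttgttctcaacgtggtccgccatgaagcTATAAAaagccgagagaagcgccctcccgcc

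Each library held 8788816 to 9537470 whole-number counts over genes and 14.5 to 42.3 FPKM of RN7SK, an abundant RNA without a poly(A) tail that had 6 to 27 counts. Of 23 listed RNAs that mostly lack a poly(A) tail, 13 stood at 0 FPKM in every library. These are 63 to 330 bases long and 10 of them had a whole-number count in at least 1 library (7 at most), so 0 FPKM does not show that they were absent. The labels do not say how RNA was selected, and the part of that selection in the histone levels below was not tested. In CPM (counts scaled by library size and TMM), ZNF410 was at 38.2 and 34.0 in the controls, 19.3 and 24.5 with sgRNA1, and 17.0 and 20.6 with sgRNA2, and each library labelled knockout was lower than either control. Its log2 difference was -0.83 with the replicate block (SE 0.125, edgeR adjusted p 0.00226), and without the block it did not pass. The 10 K562 markers (GATA1, globins and others) were all present, and of 7 markers of other cells ALB and KRT5 stood at 0 FPKM and only EPCAM exceeded 1, at 63.7 to 76.0 FPKM.

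The histone RNA of these cells was dominated by a small number of genes. FPKM, a level per length of RNA and per library, was at least 1 on average in 44 HIST and 8 variant members, at least 10 in 28 and 8, and at least 100 in 8 and 5. HIST1H2BK alone held 37.8% of the summed HIST level and HIST1H1C brought this to 64.9%, with 10 genes holding 89.5%. The plot of levels shows every histone gene with a mean FPKM of at least 1.

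**Figure D1:**
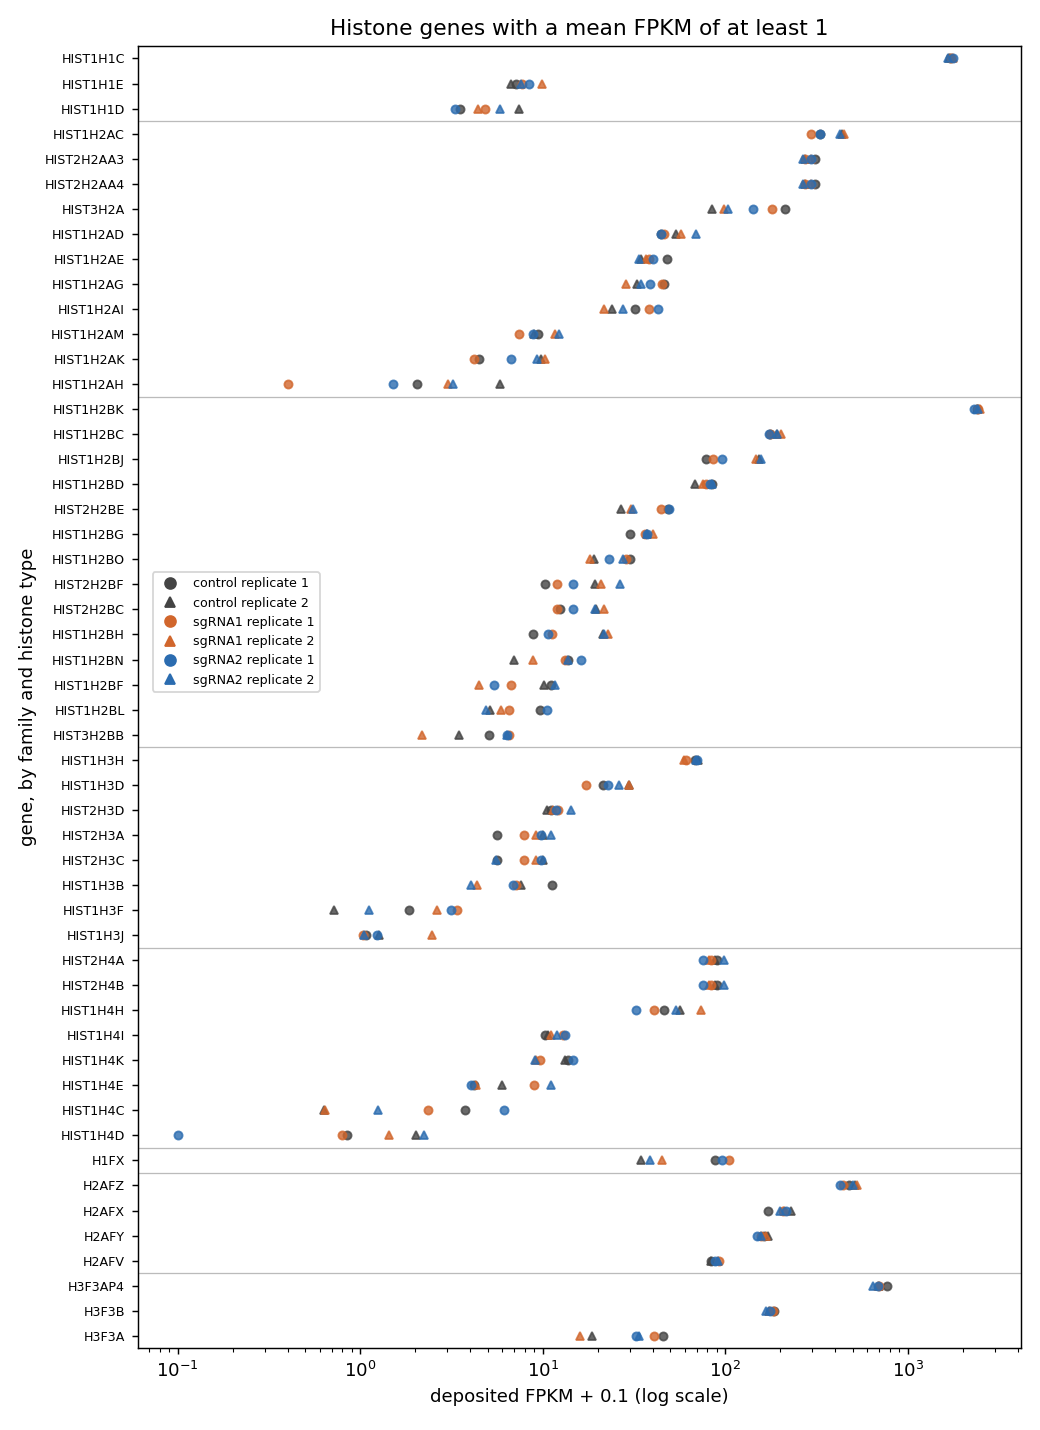
FPKM (horizontal axis, log scale, 0.1 added so that zeros can be drawn) of the histone genes with a mean of at least 1, by family and type from HIST H1 at the top to variant H3 at the bottom; each point is a library, coloured by guide, with circles for replicate 1 and triangles for replicate 2. HIST1H2BK and HIST1H1C lie far to the right of all other HIST genes, and H1FX and HIST3H2A split by replicate number.

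Among linker histones, HIST1H1C (H1.2) stood at 1704 and 1693 FPKM under the control guide, 1727 and 1775 under sgRNA1 and 1775 and 1672 under sgRNA2, and made up over 99.1% of the HIST H1 level in every library. For HIST1H1C both sgRNA1 libraries lay above both controls in FPKM, while the sgRNA2 libraries lay on either side of them. HIST1H1E (H1.4) and HIST1H1D (H1.3) were at 6.57 to 9.77 and 3.22 to 7.35 FPKM. HIST1H1A and HIST1H1B (H1.1 and H1.5) had 0 whole-number counts in every library. This allows up to 0.341 CPM, here by library size without TMM, in the shallowest (3 counts, counting error only). The testis gene HIST1H1T had 1 to 8 counts.

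Type H2A was spread over more genes. HIST1H2AC led with 331, 434, 296, 446, 331 and 424 FPKM (in this order and below: control 1 and 2, sgRNA1 1 and 2, sgRNA2 1 and 2). The 3 libraries numbered 2 all lay above the 3 numbered 1. The copies HIST2H2AA3 and HIST2H2AA4 had the same value in each library, and their sum was 623, 546, 548, 587, 588 and 535 FPKM, 571 ± 33.8 (SD over the 6 libraries). HIST3H2A, outside the main clusters on chromosome 1, stood at 213.5, 84.9, 179, 98.4, 142 and 103 FPKM, higher in every replicate 1 library. HIST1H2AD was at 44.3 to 69.4 FPKM, but had at most 2 whole-number counts in any library.

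Type H2B gave the largest summed level. HIST1H2BK stood at 2392, 2388, 2423, 2501, 2314 and 2422 FPKM, a mean of 2407 ± 60.8 (SD), the highest of all members. HIST1H2BC followed at 174 to 203, HIST1H2BJ at 78.8, 153, 85.6, 147, 95.9 and 157, and HIST1H2BD at 68.3 to 84.8 FPKM. HIST1H2BJ, too, separated by replicate number and not by guide. HIST2H2BE, whose deposited RNA length was 2223 bases, stood at 26.9 to 49.0 FPKM and had 502 to 885 counts.

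Among HIST members, types H3 and H4 had the lowest summed levels of the core histones. The variant H3 members, with the pseudogene H3F3AP4, summed to 847 to 1002 FPKM. HIST1H3H was at 59.7 to 70.5 FPKM and held 46.6% to 54.4% of the H3 level, ahead of HIST1H3D (17.2 to 29.7) and HIST2H3D (10.4 to 14.2). The copies HIST2H4A and HIST2H4B summed to 181, 175, 167, 162, 151 and 198 FPKM, and HIST1H4H was at 32.3 to 73.2. HIST1H4C was at 0.53 to 6.05 FPKM with 2 to 12 counts. FPKM of the H4 genes divides by a short effective length (105 bases for HIST2H4A against 381 for HIST1H2BK), so that few reads give a high value.

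Variant genes at 10 FPKM or more numbered 8. H2AFZ (H2A.Z, placed at promoters and exchanged by SRCAP) stood at 478, 515, 442, 526, 423 and 503 FPKM. H2AFX, the variant phosphorylated at DNA breaks, was at 172, 230, 207, 211, 216 and 199 FPKM. H2AFY (macroH2A1) was at 150 to 171 FPKM and H2AFV, a second H2A.Z gene, at 83.5 to 92.8. H3F3A and H3F3B both encode H3.3, the H3 that is deposited outside replication. H3F3B was at 166 to 184 FPKM, while H3F3A and the pseudogene H3F3AP4 together gave 681 to 817, of which H3F3AP4 was assigned 647 to 772. H1FX (H1.10) stood at 88.4, 34.7, 104, 45.1, 96.0 and 38.8 FPKM, higher in every replicate 1 library. H1F0 (H1.0), which accumulates in differentiated cells, had 0 to 2 counts, H2AFY2 had 0 to 2, and H2AFJ was at 0 FPKM in every library.

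The way reads were assigned decided several of these values. Among members with a mean of at least 20 estimated counts, the ratio of whole-number to estimated counts had a median of 0.695 in 34 HIST members and ranged from 0 to 2.39, with 7 under 0.1 and 9 above 1. In 8 variant members the median was 0.517. HIST2H2AA3, HIST2H2AA4, HIST2H3A, HIST2H3C, HIST2H4A, HIST2H4B and H3F3A had 0 whole-number counts in every library and a mean FPKM of at least 1, so they entered only the fits of estimated counts and FPKM. HIST1H2BK and HIST1H1C had ratios of 0.509 and 0.510. Ratios of this size were not particular to histone genes. Over all genes, control 1 held 8788816 whole-number and about 17228300 estimated counts, and sgRNA1 replicate 2 held 9537470 and about 18689600. Of the 43 members tested on whole-number counts, 13 overlap another gene in GENCODE v29. The strand setting is not given, so reads where genes overlap on opposite strands, as H1FX and H1FX-AS1 do, cannot be told apart. HIST1H3D, HIST1H2AM and H3F3AP4 overlap a gene on their own strand only, which strand would not separate.

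The first comparison asked whether histone RNA changed when ZNF410 was targeted. The summed HIST level overlapped between the genotypes. The HIST sum was 6365 and 6323 FPKM in the controls, 6245 and 6581 with sgRNA1 and 6244 and 6415.5 with sgRNA2. For sums, CPM was scaled by library size only, without TMM. The same-number log2 differences of the HIST sum in CPM were -0.01 and 0.05 for sgRNA1 and 0.07 and -0.0003 for sgRNA2. The log2 difference of knockout over wild type was 0.03 on that scale. The variant sum was 1987 and 1928.5 FPKM in the controls, 1926 and 1923 with sgRNA1 and 1871 and 1838 with sgRNA2. In FPKM all 4 libraries with a ZNF410 guide lay below both controls, the sgRNA1 libraries by little. In CPM by library size only, the same-number log2 differences were 0.02 and 0.01 for sgRNA1 and -0.01 and -0.07 for sgRNA2. The genotype difference was -0.01 in CPM and -0.05 in FPKM on the log2 scale. By type the sums ran from 2854 to 3101 FPKM for H2B, 1686 to 1789 for H1, 1205 to 1355 for H2A, 223 to 287 for H4 and 117 to 140.5 for H3.

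**Figure D2:**
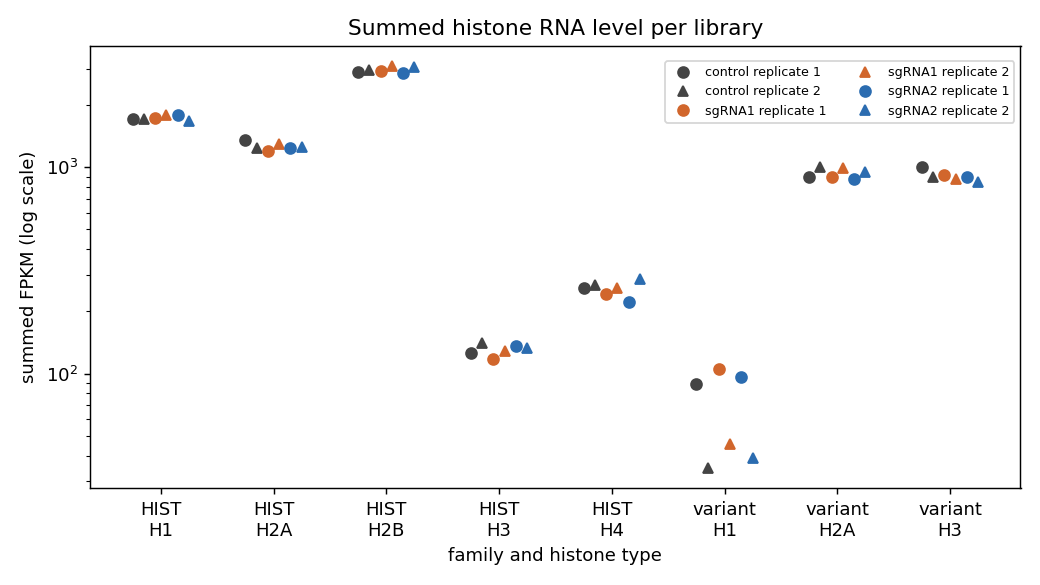
Summed FPKM (vertical axis, log scale) of the histone genes of each family and type, with a point per library, coloured by guide, circles for replicate 1 and triangles for replicate 2. The H1, H2A and H2B sums of the HIST family differ little between libraries, and the variant H1 sum, nearly all H1FX, is 88.7 to 105 in replicate 1 and 34.8 to 45.3 in replicate 2.

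Gene by gene, none of the 43 tested members (35 HIST, 8 variant) was called between knockout and wild type at an edgeR adjusted p under 0.05. Without the replicate number as a block, 0 of 43 were called, none reached an unadjusted p under 0.05, and the background was 0% of 12282 genes. DESeq2 without the block called 0 of the 51 members that it gave an adjusted p, with 0 of 66 unadjusted, where 0.135% of genes with an adjusted p were called. Limma on FPKM called 0 of 55 with 2 unadjusted, where the background was 0.00846%. With the block, edgeR again called 0 of 43 against a background of 1.84% of genes, and 3 of 43 members (6.98%) had an unadjusted p below 0.05, against 12.9% of all genes. DESeq2 with the block called 0 of 47 members with an adjusted p (background 1.23%), with 2 of 66 unadjusted. The median blocked log2 difference was 0.04 over the 43 members and 0.0045 over all genes tested. Blocked values were 0.01 (SE 0.0451) for HIST1H2BK, 0.04 (SE 0.0510) for HIST1H1C, -0.08 (SE 0.0618) for HIST1H2AC and -0.08 (SE 0.0531) for H2AFZ. In simulated counts the blocked genotype test recovered 60.5% of 1.5-fold and 81.5% of 2-fold changes, and 8.33% and 11.4% of its calls were false. The 200 changed genes stood among all 12282 tested, and recovery was not computed for the histone members alone. Of the members, 26 of 43 averaged 50 counts or more, against 9966 of all 12282 genes. The simulated recovery therefore need not hold for the members.

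HIST1H2AK, H1FX and HIST1H2BN were the 3 members with a blocked unadjusted p under 0.05. HIST1H2AK was at 1.5 and 2.32 CPM in the controls, 2.64 and 4.19 with sgRNA1, and 2.81 and 5.43 with sgRNA2, above both controls in all 4 knockout libraries. Its blocked log2 difference was 0.97 (SE 0.306, adjusted p 0.154). The size depended on the counting: estimated counts gave 0.11 for HIST1H2AK (adjusted p 0.926), and its FPKM of 4.37 and 9.68 in the controls overlapped the 4.10, 10.2, 6.61 and 9.17 of the knockout libraries. HIST1H2BN, which overlaps HIST1H2AK on the other strand, was at 7.73 and 6.44 CPM in the controls, 11.6 and 7.34 with sgRNA1, and 11.2 and 7.82 with sgRNA2. Its blocked log2 difference was 0.40 (SE 0.181, adjusted p 0.357). H1FX was at 110 and 39.7 CPM in the controls, 131 and 56.8 with sgRNA1 and 119 and 46.2 with sgRNA2. Each H1FX knockout value lay above the control of its own number, by 0.25 and 0.51 with sgRNA1 and 0.11 and 0.22 with sgRNA2 on the log2 scale, and the blocked genotype difference was 0.26 (SE 0.0859, adjusted p 0.166). In all, 3 of 43 members (6.98%) had the 4 knockout libraries above both controls and none had them below, against 9.44% of all genes on either side. The 4 same-number differences had the same sign in 13 members (30.2%, 9 higher and 4 lower), against 31.2% of all genes.

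**Figure D3:**
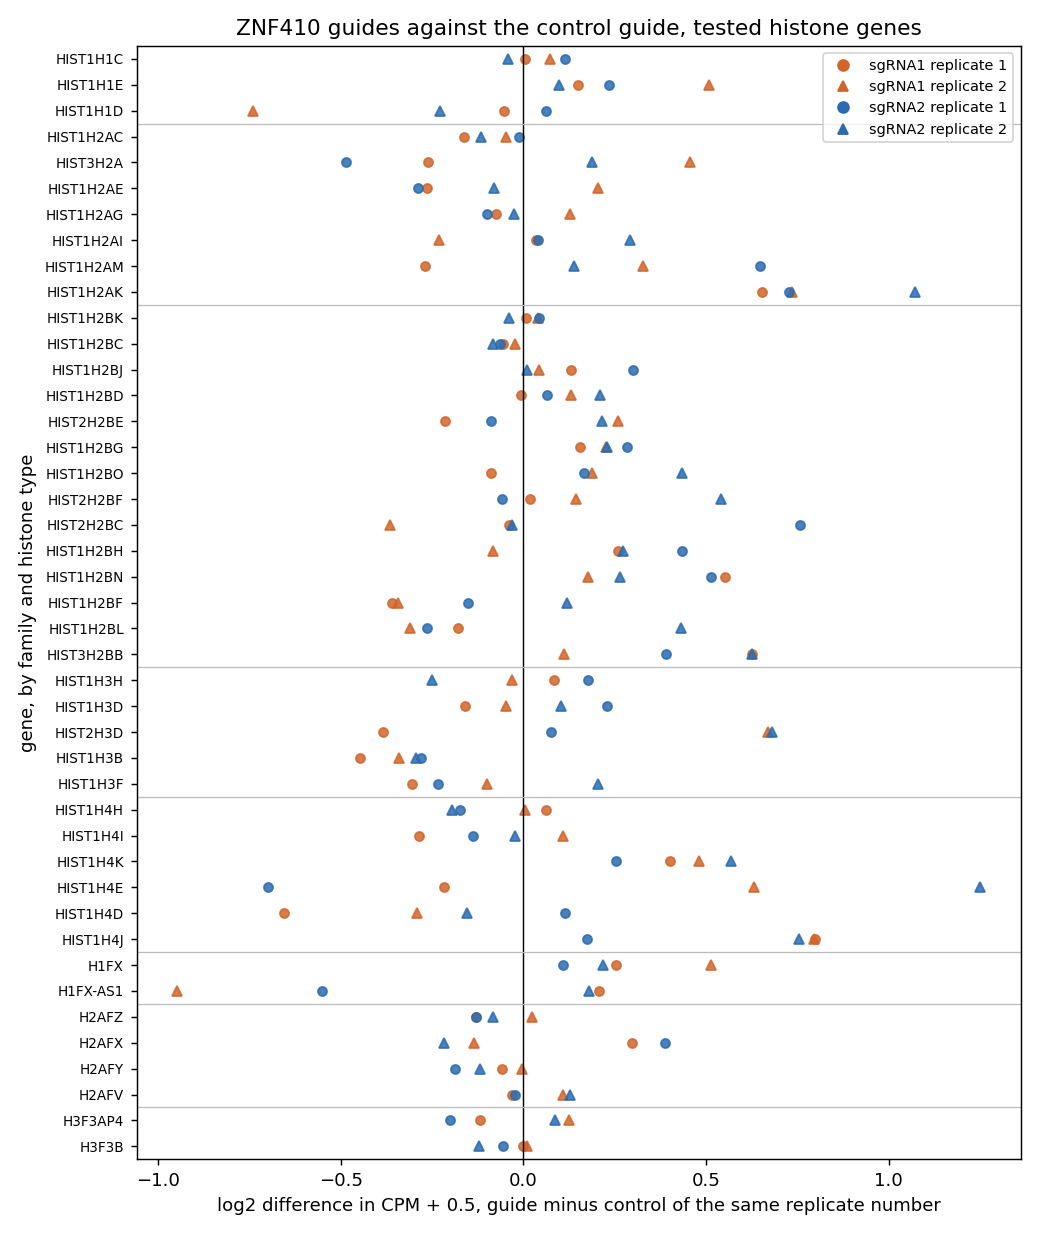
Log2 difference in CPM (0.5 added) between each guide library and the control library of the same replicate number (horizontal axis) for the 43 tested histone genes, by family and type; colour gives the guide, circles replicate 1 and triangles replicate 2. The most abundant genes, HIST1H1C and HIST1H2BK, lie near 0, HIST1H2AK and H1FX lie to the right in all 4 comparisons, and H2AFX and HIST3H2A change side with the replicate number.

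By guide the result was the same in number. For sgRNA1 against control edgeR called 0 of 43 members without the block (background 0%, 0 unadjusted) and 0 with it (background 0.887%, with 2 unadjusted against 9.91% of genes). For sgRNA2 it called 0 without the block (background 0%, 0 unadjusted) and 0 with it (background 1.38%, with 2 unadjusted against 12.3% of genes). Both guides share the control libraries. sgRNA2 against sgRNA1 gave 0 without the block (background 0%, 0 unadjusted) and 0 with it (background 0.0896%, with 1 unadjusted against 4.39% of genes). In these 3 contrasts DESeq2 without the block called 0 of 66 members (0 unadjusted), where the backgrounds were 0.0338%, 0.0225% and 0%. With the block it called 0 of the 51, 33 and 66 members that had an adjusted p (1, 1 and 0 of 66 unadjusted), where the backgrounds were 0.364%, 0.738% and 0.0169%. In 2 of 43 members, HIST1H3D and HIST1H4H, the guides lay on opposite sides of the same-number control in both replicate numbers, as in 4.25% of all genes. In FPKM 1 of the 4 differences had the other sign in each of these genes, so the pattern depended on the counting. H1FX came nearest to the threshold, with a blocked log2 difference of 0.37 with sgRNA1 (adjusted p 0.0590) and 0.16 with sgRNA2 (adjusted p 0.504). The H1FX value for sgRNA1 crossed the threshold in 4 blocked alternatives: 0.30 with estimated counts (adjusted p 0.0479, background 1.39%), 0.36 without the low-count filter (adjusted p 0.00517, background 1.63%), 0.35 with a length trend removed (adjusted p 0.0450, background 1.09%) and 0.37 with only the 4 libraries compared (adjusted p 0.0248, background 1.66%). Blocked limma on FPKM called 2 of 55 members in the genotype contrast (background 1.64%), 1 for sgRNA1 (0.372%) and 2 for sgRNA2 (0.795%). It called HIST1H3B lower in the genotype contrast, -0.68 (SE 0.0741, adjusted p 0.00780), where edgeR gave -0.38 (SE 0.235, adjusted p 0.557). HIST1H3B was at 11.2 and 7.54 FPKM in the controls and at 7.02, 4.29, 6.78 and 3.95 FPKM in the knockout libraries. It had 34 to 51 whole-number counts, but its estimated counts were 33 and 25 in the controls and 22, 14, 23 and 12 in the knockout libraries. By guide, blocked limma gave HIST1H3B -0.65 for sgRNA1 (adjusted p 0.0495) and -0.72 for sgRNA2 (adjusted p 0.0264), HIST2H2BF 0.46 for sgRNA2 (adjusted p 0.0482), and HIST2H2AC 1.16 for the genotype (adjusted p 0.0494), the last with both controls at 0 FPKM, so that its size is set by the 1 added to FPKM. Whole-number counts of HIST2H2AC were 4 and 2 in the controls and 4, 3, 3 and 3 in the knockout libraries.

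The genes that supply and handle histones were compared in the same way. Of 28 genes for histone transcription and 3′ end processing, 1 was called in the blocked genotype contrast (background 1.84%) and 0 without the block (background 0%, 1 unadjusted). It was CSTF2T, a cleavage stimulation subunit paralogue, named after its value was seen, at 76.2 and 62.4 CPM in the controls and 92.9, 81.5, 88.9 and 79.1 with the ZNF410 guides. Its blocked log2 difference was 0.31 (SE 0.0659, adjusted p 0.0257). SLBP, the stem-loop binding protein, was at 144 and 162 CPM in the controls and 167, 168, 169 and 162 in the knockouts (blocked 0.12, SE 0.0615, adjusted p 0.427). NPAT was at 48.4 and 54.97 CPM in the controls and 53.2, 54.3, 51.4 and 62.5 in the knockouts (blocked 0.10, SE 0.0784, adjusted p 0.666). None of 28 histone chaperones and exchangers (3 unadjusted) and none of 20 S-phase genes (1 unadjusted) was called by edgeR with the block, and estimated counts also gave 0 in both lists (background 3.03%). CENPA, the centromeric H3 outside the symbol rule, had a blocked value of -0.04 (SE 0.0844, adjusted p 0.904).

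The largest differences among histone genes followed the replicate number. Between replicate 2 and replicate 1, with the guide as a term, 18 of 43 members were called (41.9%), 9 higher and 9 lower, against 45.0% of all genes tested (21.6% higher and 23.5% lower), so the share of members called was near the background. Of 35 HIST members 8 were higher and 6 lower, and of 8 variant members 1 was higher and 3 lower. The split moved with the scaling: with a length trend removed it was 11 higher and 6 lower, where 45.2% of all genes were called (21.8% higher and 23.4% lower). With length and GC trends removed it was 12 and 7, where 45.1% of all genes were called (22.2% higher and 22.9% lower). Estimated counts gave 11 and 6 of 48, with 12 genes shared and a background of 52.6% (25.5% higher and 27.1% lower). DESeq2 called 10 of 47 members with an adjusted p (background 26.7%). With edgeR, 11 were called without sgRNA1 replicate 1 (background 31.5%) or without sgRNA1 replicate 2 (background 33.0%). Without a control library 16 were called (background 43.3% for either), and without an sgRNA2 library 13 (background 38.4% and 39.1%). In 23 of 43 members (53.5%) the 3 libraries of a number did not overlap the other 3, against 52.1% of all genes. Summed FPKM of the 10 K562 markers also moved with the number, 15428, 19507 and 20931 in replicate 1 and 32491, 47172 and 44913 in replicate 2, and its part in these differences was not tested. Most of that sum was HBG1 and HBG2, with means of 8598 and 15195 FPKM. Gene by gene 8 of the 10 markers were called higher and 1, GATA1, lower (-0.15, adjusted p 0.0184), and LMO2 did not pass (-0.14, adjusted p 0.129). The HIST sum stayed closer. In CPM by library size only, without TMM, its log2 difference between the numbers was -0.01 in the controls, 0.06 with sgRNA1 and -0.08 with sgRNA2.

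**Figure D4:**
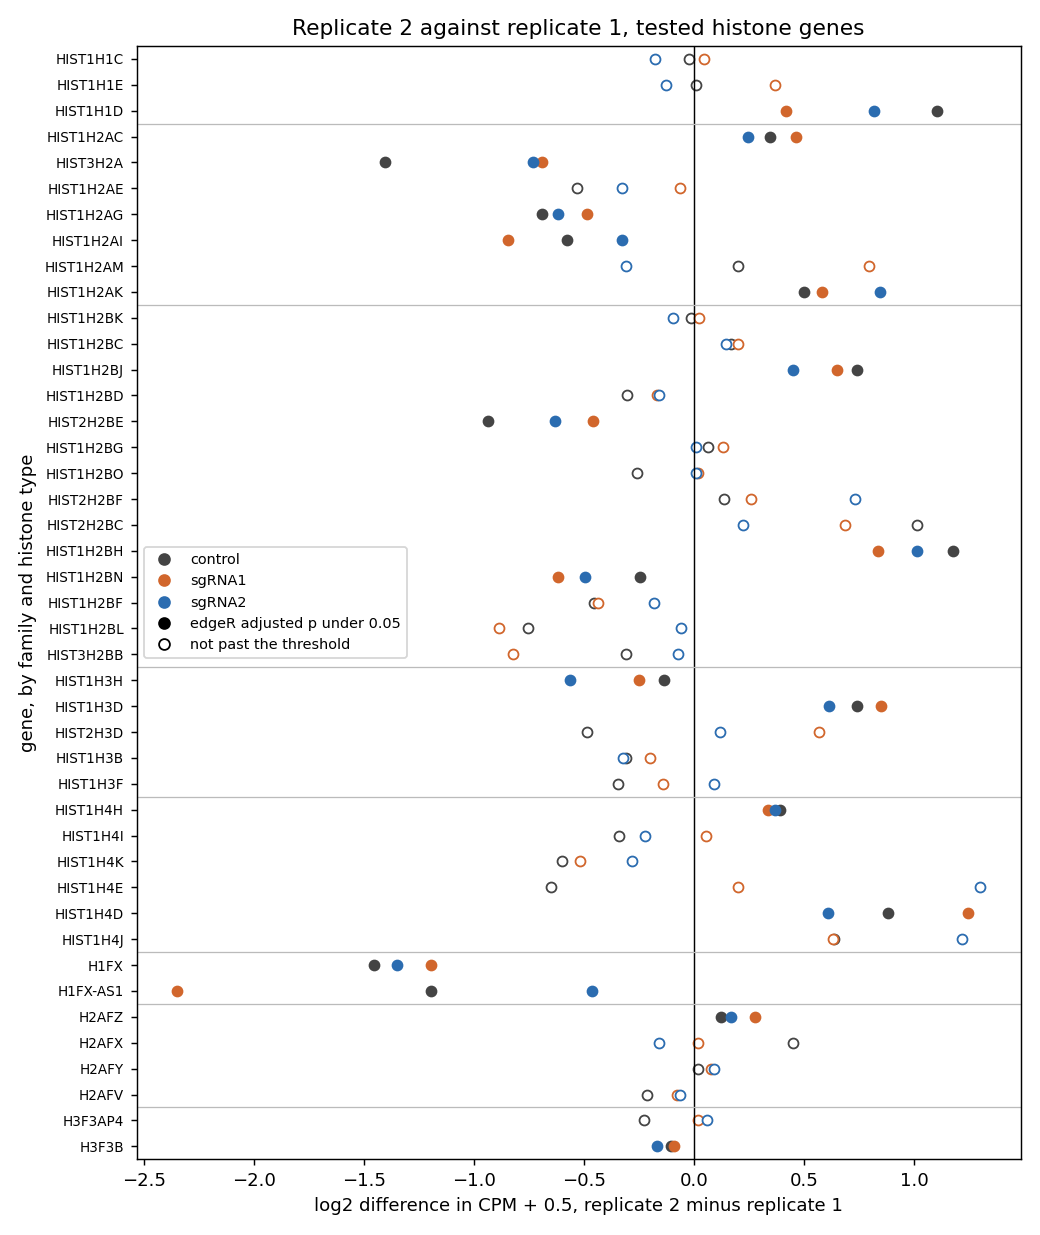
Log2 difference in CPM (0.5 added) between replicate 2 and replicate 1 of the same group (horizontal axis) for the 43 tested histone genes, by family and type; colour gives the group and filled points mark genes with an edgeR adjusted p under 0.05. H1FX, HIST3H2A and HIST2H2BE lie left of 0 and HIST1H2BH, HIST1H2BJ and HIST1H2AC right of 0 in all 3 groups.

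H1FX, the linker variant, fell most clearly in replicate 2, by 1.34 on the log2 scale (SE 0.0686, adjusted p 3.81e-09), from 110, 131 and 119 CPM in replicate 1 to 39.7, 56.8 and 46.2 in replicate 2. The numbers did not overlap in any group. H1FX-AS1, the antisense RNA that overlaps it, had 5 to 43 counts and fell by 1.60 (SE 0.411, adjusted p 0.00571), and estimated counts were too low to test it. HIST3H2A fell by 0.95 (SE 0.119, adjusted p 1.94e-05), with 67.5, 56.2 and 48.0 CPM in replicate 1 against 25.1, 34.6 and 28.7 in replicate 2. HIST2H2BE fell by 0.68 (SE 0.0813, adjusted p 1.30e-05), from 102, 87.7 and 95.7 to 53.0, 63.5 and 61.5 CPM. HIST1H2AG and HIST1H2AI on chromosome 6 fell by 0.63 and 0.59 (adjusted p 0.00277 and 0.00152). HIST1H3H fell by 0.32 in whole-number counts (adjusted p 0.0147), where estimated counts gave -0.01 (adjusted p 0.929), so this call depends on the counting. HIST1H2BN (-0.49, adjusted p 0.0347) and H3F3B (-0.12, adjusted p 0.0410) passed with small margins and missed the threshold in estimated counts (adjusted p 0.0692 and 0.120).

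Other members rose in replicate 2. HIST1H2BH rose by 1.09 (SE 0.208, adjusted p 0.000700), from 3.23, 3.96 and 4.54 CPM to 7.91, 7.44 and 9.67. HIST1H2BJ rose by 0.61 (SE 0.0699, adjusted p 8.18e-06), from 56.1, 61.4 and 69.1 to 93.8, 96.6 and 94.4 CPM. HIST1H2AC rose by 0.35 (SE 0.0589, adjusted p 0.000260), from 126, 112 and 125 to 160, 155 and 147 CPM. The numbers did not overlap in these genes. HIST1H3D rose by 0.77 (adjusted p 0.00189), HIST1H4H by 0.37 (adjusted p 0.0179) and H2AFZ by 0.19 (adjusted p 0.00746). HIST1H1D, HIST1H2AK and HIST1H4D rose by 0.94, 0.76 and 1.56 (adjusted p 0.0224, 0.0389 and 0.0438) on 16 to 43, 13 to 50 and 1 to 12 counts. In estimated counts HIST1H1D missed the threshold (0.59, adjusted p 0.0811) and HIST1H4D was not tested. In each of the 17 settings tried, 7 members were called, namely H1FX, HIST1H2AC, HIST1H2AI, HIST1H2BH, HIST1H2BJ, HIST2H2BE and HIST3H2A, and 21.5% of all genes were called in each of them.

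Neighbouring genes did not always move together. Of 15 head-to-head pairs of members with start sites under 1000 bases apart, 8 had both genes tested. Of these, 2 were called in opposite directions and 1 in the same direction. The share expected of arbitrary pairs was not computed, where 21.6% of all genes were called higher and 23.5% lower. HIST1H2BJ and HIST1H2AG start 292 bases apart. The HIST1H2AG window printed above, with its octamer and 4 CCAAT boxes, lies between these starts. In replicate 2 HIST1H2BJ rose by 0.61 and HIST1H2AG fell by 0.63, both past the threshold. HIST1H2BN and HIST1H2AK were also called in opposite directions, but their transcribed regions overlap (start sites at -579 bases, counted from the minus-strand gene). H1FX and H1FX-AS1, which overlap as well, were called in the same direction. No other tested pair had both genes called. Estimates had the same sign in HIST1H2BC and HIST1H2AC (0.17 and 0.35), HIST1H2BL and HIST1H2AI (-0.72 and -0.59), and HIST3H2A and HIST3H2BB (-0.95 and -0.56). They had opposite signs in HIST1H2AM and HIST1H2BO (0.25 and -0.08), and in HIST1H2BG and HIST1H2AE (0.07 and -0.32). Levels within a pair differed too: HIST1H2BK averaged 2407 FPKM and HIST1H2AH, 331 bases away, 2.57, a ratio of 935. HIST2H2BE averaged 38.4 FPKM and HIST2H2AC, 323 bases away, 0.89, with 2 to 4 counts. HIST1H2BG and HIST1H2AE, by contrast, averaged 36.2 and 38.6 FPKM, and HIST1H2BC and HIST1H2AC 186 and 377.

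Some members differed from the control in opposite directions in replicates 1 and 2. How many members did so, and what share of all genes, was not counted. H2AFX was at 218, 268 and 286 CPM in replicate 1 (control, sgRNA1, sgRNA2) and at 298, 271 and 256 in replicate 2, so both knockout libraries lay above the control in replicate 1 and below it in replicate 2. HIST3H2A did the reverse, with log2 differences of -0.26 and -0.49 in replicate 1 and 0.45 and 0.19 in replicate 2. A fit with genotype, number and their interaction, added after these values were seen, called 0 of 43 members against 0.244% of all genes, and 5 members had an unadjusted p under 0.05 against 8.35% of all genes. The interaction was -0.52 (SE 0.107, adjusted p 0.0525) for H2AFX, 0.71 (SE 0.191, adjusted p 0.222) for HIST3H2A and 0.39 (SE 0.132, adjusted p 0.375) for HIST2H2BE. Each rests on a single control library per number. Without control replicate 2, the blocked genotype difference of H2AFX was 0.34 (SE 0.0788, adjusted p 0.0249, background 1.87%), against 0.07 (SE 0.0871, adjusted p 0.790) with all 6 libraries.

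The same pathway lists were read between the numbers. Of the 28 transcription and processing genes 12 were called, 6 higher and 6 lower (42.9%), of the 28 chaperones and exchangers 13, 9 higher and 4 lower (46.4%), and of the 20 S-phase genes 9, 8 higher and 1 lower (45.0%), totals near the 45.0% of all genes. The S-phase genes and the chaperones and exchangers were mostly called higher, where 21.6% of all genes were higher and 23.5% lower. Whether these directions differ from those of all genes was not tested. Estimated counts gave 10 higher and 1 lower in the S-phase list. MIF4GD, which binds SLBP and promotes histone mRNA translation, fell by 0.95 (SE 0.129, adjusted p 4.20e-05), from 26.4, 23.7 and 25.6 to 11.5, 15.0 and 12.7 CPM. IPO4, an importin that carries H3 and H4 into the nucleus, rose by 0.42 (SE 0.0549, adjusted p 2.79e-05), from 127, 131 and 124 to 175, 167 and 170 CPM. SRCAP, the ATPase that exchanges H2A.Z, rose by 0.39 (adjusted p 0.000181), and YEATS4, a subunit of the same complex, fell by 0.53 (adjusted p 0.000583). TONSL and SUPT6H rose by 0.36 and 0.31 (adjusted p 0.000184 and 0.000422). SLBP did not pass (0.04, SE 0.0583, adjusted p 0.629).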

How the data were processed

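RNA-seq of 6 K562 libraries was analysed from tables that the authors deposited. Whole-number counts per gene symbol, deposited by the authors, are raw reads per gene, and 61.6% to 62.6% of their total stands in rows that name no gene and was left out. The deposited tables also hold estimated counts, TPM and FPKM per gene, named so per the file headers. The submitters' processing notes name hg38, Trim Galore, HISAT2 2.2.1, SAMtools 1.9, HTSeq 0.6.1, RSEM 1.3.2 and DESeq2 1.36.0, without their roles. RNA was extracted with RNeasy Mini kits and libraries made with the VAHTS Universal V6 kit, per the labels' protocols. The strand setting and the selection of RNA are not given in the sources used here. TPM was not used.

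Whole-number counts were tested with edgeR 4.0.16 (R 4.3.3, TMM scaling, filterByExpr by group, quasi-likelihood F-test, SE taken as the log2 difference over the square root of F) over 12282 genes, with Benjamini-Hochberg adjustment over all of them and a threshold of 0.05. The genotype and guide contrasts had no block in the main design, and the fit with the replicate number as a block is given beside it. Deviations of same-numbered libraries from their group means correlated at 0.813, 0.759 and 0.826 over the 9966 genes averaging 50 counts or more, so the numbers pair the libraries by these data alone. Replicate 2 was compared with replicate 1 with the guide as a term. Estimated counts were rounded for edgeR, FPKM were tested with limma 3.58.1 on log2(FPKM + 1) above a mean of 0.5, or with 0.1 added, and DESeq2 1.42.0 was an alternative. Fold changes in FPKM are on that scale and understate those of low genes. CPM had 0.5 added for same-number differences. No test was made on sums. The libraries of a group differed beyond counting noise (chi-square per degree of freedom 28.5, 24.4 and 23.8), so none looks like the same library deposited again; whether they are technical replicates of 1 culture was not tested. On simulated counts with 200 changed genes of 12282, the replicate contrast recovered 65.0% of 1.5-fold and 84.0% of 2-fold changes, and the genotype contrast without the block 0% and 30.5%.

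Members and lists were chosen with earlier results of these data known. Named were the 3 genes with the highest mean FPKM of each HIST type, tested variant genes, members called in a contrast (up to 12 by adjusted p), the 4 largest and 4 smallest differences of the replicate and the blocked genotype contrast, and up to 6 called pathway genes; other genes named to account for a count or a pair were chosen after their values were seen.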

Additional observations from a re-analysis of the deposited data

Results flagged for a closer look

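In 2 of 43 members the guides lay on opposite sides of the control in both replicate numbers, as they did in 4.25% of all 12282 genes tested, and the opposite signs themselves were not tested. HIST1H3D was below the same-number control with sgRNA1, by -0.16 and -0.05 on the log2 scale, and above it with sgRNA2, by 0.23 and 0.10. In FPKM the pattern was not seen, since sgRNA2 replicate 2 of HIST1H3D was at 25.9 against 29.7 in its control. The mean same-number difference of sgRNA2 minus that of sgRNA1 was 0.27. The edgeR estimate of sgRNA2 against sgRNA1 with the replicate block, a separate quantity, was 0.27 for HIST1H3D (SE 0.205, adjusted p 0.999). HIST1H4H was above the control with sgRNA1, by 0.06 and 0.01, and below it with sgRNA2, by -0.17 and -0.20. In FPKM this pattern was not seen either, since sgRNA1 replicate 1 of HIST1H4H was at 40.5 against 46.1 in its control. The mean same-number difference of sgRNA2 minus that of sgRNA1 was -0.22. The edgeR estimate with the block was -0.22 for HIST1H4H (SE 0.143, adjusted p 0.999).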

How the results depend on the processing

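With the replicate number as a block, 0 of 43 members were called in the genotype and guide contrasts, as without it. Other counts came from blocked fits: 2 in the genotype contrast and 2 for sgRNA2 with limma on FPKM, and 1 for sgRNA1 with each of estimated counts (1.39% of all genes called), limma on FPKM (0.372%), no low-count filter (1.63%), a length trend removed (1.09%) and only the 4 libraries compared (1.66%). Leaving out 1 library gave 0 to 1 in the genotype contrast, with the 1 (H2AFX) without control replicate 2 (1.87% of all genes), and 11 to 16 between the replicate numbers (31.5% to 43.3% of all genes). DESeq2 called 10 between the numbers. The genotype difference of the variant sum was -0.051 in FPKM. HIST1H2BK, at -0.03 between the numbers, was at 0.11 (adjusted p 0.0362) with length and GC trends removed, a setting chosen after seeing the data, as were the blocked fits without 1 library. A miss without the block says little, since that fit recovered 0% of simulated 1.5-fold and 30.5% of 2-fold changes. In the main genotype contrast it called 0 of 12282 genes. Of 794 alternative values for 31 named histone genes there, 792 also missed the threshold and 2 passed it (HIST1H3B with blocked limma, H2AFX with the block and without control replicate 2). HIST2H2AC, called by blocked limma, and HIST1H2BN are not among the 31. Of these values, 106 uncalled ones had the other sign. Between the numbers, 419 of 489 values stayed on their side of the threshold, 55 fell short of it, 14 passed it and 1 reversed, and 24 uncalled values had the other sign. The cause was not tested. Reads that fall in copies or overlapping genes limit the counts, and genes near 0 counts could not be tested.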
